A study of Homo sapiens with 21 samples.

Results

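The 53 genes described here are interferon-stimulated effectors outside the OAS, IFIT, IFITM and PYHIN families, chosen by symbol from a table of 20423 genes. The table came from RNA sequencing of THP1, a human monocytic acute myeloid leukemia line. All 53 have a row in it. The knockdown arm held 2 libraries of an shRNA control (replicates 1 and 3) and 3 libraries of each of 2 hairpins against IRF2BP2, a transcriptional corepressor, carried in the pLKO.1 vector. The knockout arm held 2 libraries of a knockout control, 4 of ATF7 knockout cells and 4 of JDP2 knockout cells. Both targets belong to the basic leucine zipper family of transcription factors, and each knockout was represented by 2 clones, made with Lenti-CRISPRv2 constructs and isolated by limited dilution, with 2 libraries per clone. There was also 1 library of wild-type cells (replicate 2). The labels name no interferon or other stimulus for any group. Each clone grew from 1 cell. Since nothing in the labels ties replicates to separate cultures, the p-values reflect the spread among libraries alone, and that spread may be technical.

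Type I and type III interferons bind their receptors, activate the JAK kinases and lead a complex that holds STAT2 and IRF9 to assemble on a DNA element called the interferon-stimulated response element (ISRE). Interferon gamma acts through a different element, the gamma-activated site (GAS). The genes switched on this way encode sensors of foreign RNA, ISG15 and the enzymes that attach it to proteins, GTPases, nucleases and other factors that block viruses at each step of their life cycle, and myeloid cells keep many of them at a basal level without infection.

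RefSeq promoter windows (GRCh38.p14), from 250 bases before to 50 bases after an annotated start, were at hand for 43 of the 53 genes, in 59 windows. The letters of the ISRE core (GAAA, any 2 bases, GAAA) were found on either strand in 32 of the 59 windows (54.2%), belonging to 28 genes, and in 3.57% of all 35116 windows. A longer repeat with 3 GAAA blocks, each 2 bases apart, was found in 8.47% of the windows of these genes and in 0.154% of all windows. The GAS letters TTCNNNGAA were found in 20.3% against 7.66%, the AP-1 letters TGANTCA in 11.9% against 7.71%, and the CRE letters TGACGTCA, to which ATF and JDP2 dimers can bind, in 0 of 59 against 1.85%. A match of the longer repeat also counts as a core match, and several genes have more than 1 window, so windows are not independent. The ISRE matches lay between position -196 and position 23 from the start, at 41 distinct sites, of which 1 is shared by PARP9 and DTX3L, which are transcribed head to head. These are matches of letters, given as a description with no test.

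The 200 bases before the start are shown for 9 genes, called and not called in the knockdown described next, from RefSeq on the strand of the gene, with each ISRE core match in capitals. ISG15 and IFI6 hold matches and had large differences that were not called, and IFI27, DDX60 and SAMD9 hold matches and were called higher. BST2 and TRIM14 hold matches and were not called, and SAMD9L and SAMHD1 were called and hold none in this window.
ISG15, chr1:1013297-1013496, plus strand: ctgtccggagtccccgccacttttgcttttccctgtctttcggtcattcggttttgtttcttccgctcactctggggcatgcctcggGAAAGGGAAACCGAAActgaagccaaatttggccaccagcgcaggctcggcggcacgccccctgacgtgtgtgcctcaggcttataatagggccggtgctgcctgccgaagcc
IFI6, chr1:27672193-27672392, minus strand: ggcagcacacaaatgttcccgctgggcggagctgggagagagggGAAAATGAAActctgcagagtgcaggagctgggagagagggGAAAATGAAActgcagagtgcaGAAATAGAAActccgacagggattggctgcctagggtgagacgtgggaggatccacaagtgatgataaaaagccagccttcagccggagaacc
IFI27, chr14:94110536-94110735, plus strand: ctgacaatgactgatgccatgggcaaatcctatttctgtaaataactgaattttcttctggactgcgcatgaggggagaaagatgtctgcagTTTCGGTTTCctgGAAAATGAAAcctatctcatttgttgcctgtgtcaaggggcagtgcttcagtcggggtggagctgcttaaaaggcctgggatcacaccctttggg
DDX60, chr4:168318753-168318952, minus strand: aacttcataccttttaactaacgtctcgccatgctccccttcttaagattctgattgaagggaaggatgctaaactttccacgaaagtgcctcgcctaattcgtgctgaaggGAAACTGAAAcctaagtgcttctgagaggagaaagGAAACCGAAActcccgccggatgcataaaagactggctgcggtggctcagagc
SAMD9, chr7:93117980-93118179, minus strand: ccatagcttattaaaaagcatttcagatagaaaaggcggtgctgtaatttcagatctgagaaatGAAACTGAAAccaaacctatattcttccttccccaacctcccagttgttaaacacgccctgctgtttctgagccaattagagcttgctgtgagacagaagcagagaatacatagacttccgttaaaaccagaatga
BST2, chr19:17405631-17405830, minus strand: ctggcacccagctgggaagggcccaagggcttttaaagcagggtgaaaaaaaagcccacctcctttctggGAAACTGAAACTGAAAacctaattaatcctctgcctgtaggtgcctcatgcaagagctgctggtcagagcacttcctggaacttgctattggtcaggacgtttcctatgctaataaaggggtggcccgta
TRIM14, chr9:98119223-98119422, minus strand: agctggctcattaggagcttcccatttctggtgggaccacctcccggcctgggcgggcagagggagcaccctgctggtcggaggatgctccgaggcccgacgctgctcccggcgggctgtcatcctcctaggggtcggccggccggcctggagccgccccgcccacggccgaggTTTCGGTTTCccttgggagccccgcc
SAMD9L, chr7:93148386-93148585, minus strand: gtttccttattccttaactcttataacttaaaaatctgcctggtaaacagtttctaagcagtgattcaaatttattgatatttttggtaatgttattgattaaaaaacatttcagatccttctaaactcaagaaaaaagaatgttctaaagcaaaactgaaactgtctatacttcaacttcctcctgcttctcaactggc
SAMHD1, chr20:36951709-36951908, minus strand: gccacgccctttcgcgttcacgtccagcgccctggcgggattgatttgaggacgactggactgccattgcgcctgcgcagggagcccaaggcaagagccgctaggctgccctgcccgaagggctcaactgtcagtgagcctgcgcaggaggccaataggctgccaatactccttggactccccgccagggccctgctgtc

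Reads in genes ran from 28.7 to 60.2 M (mega) in the libraries, with 14263 to 19046 genes detected (1 read or more). A share of over 20% of genes at more than 2-fold distance from the all-library median was found in 3 libraries, namely IRF2BP2 shRNA 1 replicate 3 (48.5%), JDP2 knockout clone 1 replicate 2 (38.2%) and IRF2BP2 shRNA 2 replicate 3 (25.6%). The targeted message stood at 16973 and 18382 normalized counts in shRNA control, at 9456, 11110 and 9802 in IRF2BP2 shRNA 1, and at 12587, 16649 and 25651 in the libraries labelled IRF2BP2 shRNA 2. IRF2BP2 in the library labelled shRNA 2 replicate 3 was above both controls, against its label, and every knockdown direction below includes that library. In shRNA 2 replicate 2 the message (16649) lay close below the lower shRNA control (16973). ATF7 stood at 299.9 and 537 in knockout control and between 362.5 and 645 in the ATF7 knockout, and JDP2 at 5085 and 3438 in knockout control and between 3158 and 5693 in the JDP2 knockout. The groups overlapped for both targets, so these whole-gene counts give no check of the knockout labels. Markers of a monocytic line (CD33, SPI1, LYZ, CD68, CSF1R, CD14, ITGAM, MPO and CEBPA) all had a mean of at least 10 normalized counts. Their summed level ran from 56135 to 62660 in shRNA control and from 67608 to 214670 in the knockdown libraries, and in the wild-type library it was 119701. Of the 9 markers 8 had a log2 change above 0 in the knockdown, 5 had an unadjusted p under 0.05 and ITGAM alone was called higher (log2 change 3.17), with a median of 1.72 over the 9. The part of this marker difference in the results was not tested.

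After IRF2BP2 knockdown 9 interferon-stimulated effectors rose, and no tested one had a log2 change below 0. Of the 53 genes, 47 had a mean of at least 10 normalized counts over the 8 libraries and were tested. By limma with Benjamini-Hochberg adjustment over 12738 genes, 9 of the 47 rose and 0 fell, where 1.54% of all genes were called higher and 0.251% lower. They were SAMD9L, SAMD9, SAMHD1, TRIM21, IFI27, GBP2, DDX60, GBP1 and PARP9. On the recovered reads edgeR called 4 of the 47 (SAMHD1, SAMD9, SAMD9L and TRIM21) and DESeq2 called 32. Shares of all genes called by edgeR and DESeq2 are not given here, so those counts alone do not set these genes apart. All 47 log2 changes were above 0, against 47.9% of all genes, and their median was 1.73 against -0.03 for all genes. Those of LY6E and TRIM14 were near 0 and came out at -0.086 and -0.019 against all 5 control libraries of the study. GBP1, IFI27 and LGALS3BP had an shRNA control mean under 10 and passed the filter only through the knockdown, which by itself favors a change above 0. Among the 44 genes with a control mean of at least 10, 7 were called, all 44 changes were above 0 (45.6% of all such genes) and the median was 1.61 (-0.06 for all such genes). An unadjusted p under 0.05 was found for 35 of the 47 and for 14% of all genes. Every knockdown library lay above both shRNA control libraries for 35 of 47 genes (74.5%, against 11.1% of all genes), and below both for 0 (11.2% of all genes). Against all 5 control libraries of the study, 29 of 47 did not overlap (61.7%, against 6.25% of all genes). Of the 35 genes above both shRNA controls, 33 were among the 44 with a control mean of at least 10.

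The number called moved with single libraries, and the shares of all genes called in those fits are not given here. It was 0 when shRNA control replicate 1 was left out and 1 (GBP2) when replicate 3 of that control was left out. It was 15 when replicate 1 of hairpin shRNA 1 was left out and 20 when replicate 3 of that hairpin was. With the library labelled shRNA 2 replicate 3 left out it was 8. With 1 control library left out the lone control is assumed to vary like the other groups. In bulk RNA, a change in the share of cells that make a message and a change in message per cell cannot be told apart.

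**Figure D1:**
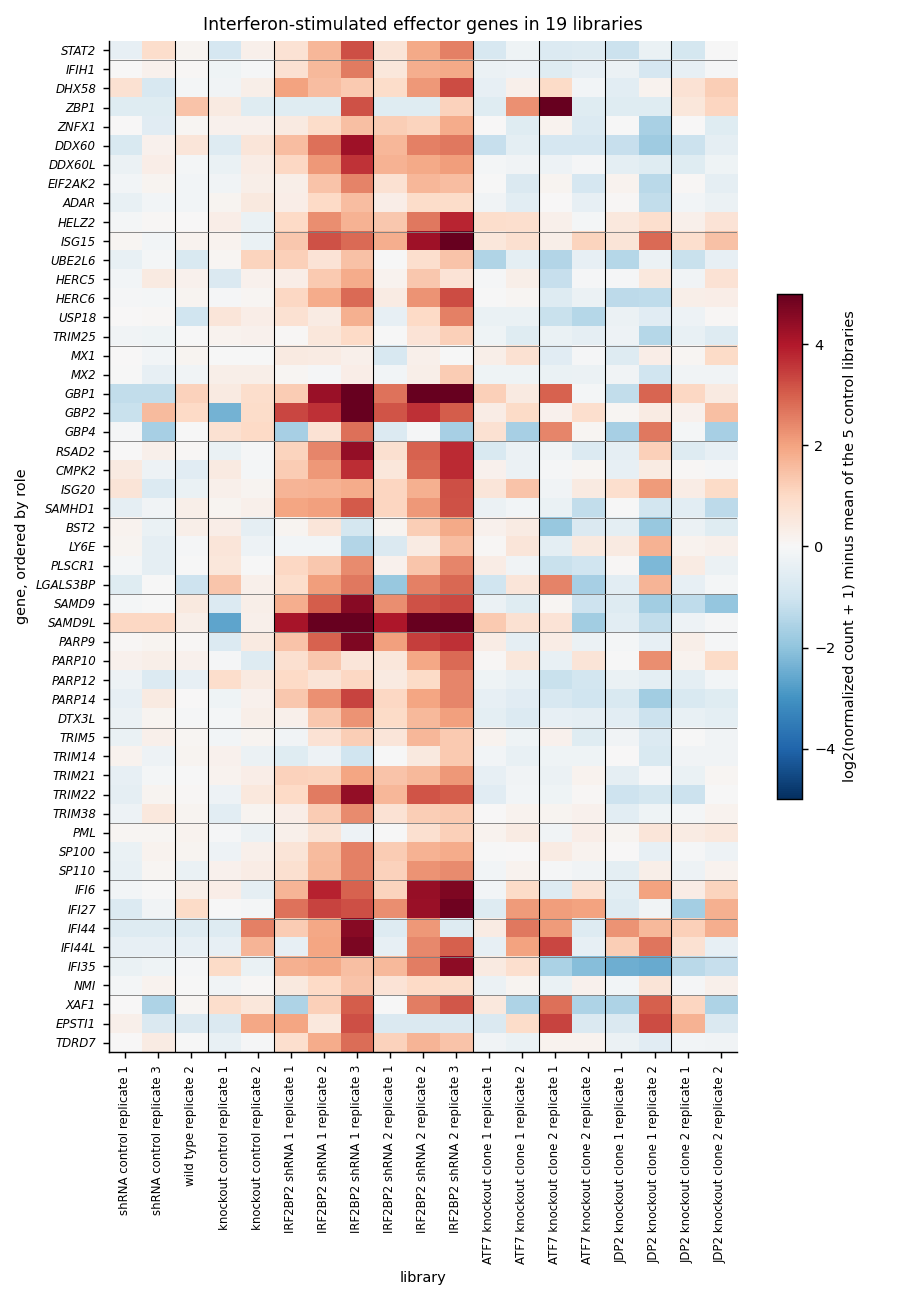
Each row is 1 of the 53 genes, ordered by role, and each column 1 of the 19 libraries; color is the log2(normalized count + 1) minus the mean of the 5 control libraries, with values beyond 5 in either direction shown at the end of the scale. The 6 IRF2BP2 shRNA columns are red for most rows, and the ATF7 and JDP2 knockout columns are pale or blue for most rows.

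Among the tested sensors and helicases the median log2 change was 1.67, beside 1.73 for all 47 tested genes. STAT2, a signal transducer that works with IRF9, stood at 398 and 959.5 normalized counts in shRNA control, at 873, 1685 and 4901 in shRNA 1 and at 815, 1942 and 3062 in shRNA 2. The first library of each hairpin lay below the higher control, so the groups overlapped, and the log2 change of 1.55 ± 0.62 (SE) was not called (adjusted p = 0.277). DDX60, a helicase of the antiviral RNA response, stood at 87.6 and 172 in shRNA control, at 439, 1032 and 2849 in shRNA 1 and at 472, 867 and 947 in shRNA 2. All 6 knockdown libraries lay above both controls, and DDX60 rose by 2.85 ± 0.58 on the log2 scale (SE, limma adjusted p = 0.0286). Of the 9 sensors and helicases 8 were tested and 1 was called. The other 7, among them the RNA sensor IFIH1 (log2 change 1.43), its regulator DHX58 (1.89), the translation-blocking kinase EIF2AK2 (1.36) and the RNA editing enzyme ADAR (1.09), had an unadjusted p under 0.05 and did not pass the adjustment.

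Of the 6 genes of the ISG15 conjugation system limma called 0, with 3 at an unadjusted p under 0.05 and a median log2 change of 1.07, while DESeq2 called ISG15, UBE2L6 and HERC6 and edgeR none. ISG15, a ubiquitin-like protein attached to new proteins, stood at 1084 and 923 normalized counts in shRNA control, at 2610, 9234 and 7275 in shRNA 1 and at 3636, 19306 and 44664 in shRNA 2. The libraries of 1 hairpin were far apart, no library overlapped the controls, and the log2 change of 3.18 ± 0.83 (SE) had an adjusted p of 0.0817. UBE2L6, the enzyme that passes ISG15 on for conjugation, had a log2 change of 1.16 (adjusted p = 0.183), the ligase HERC5 of 0.80 (adjusted p = 0.448) and the ISG15-removing protease USP18 of 0.97 (adjusted p = 0.510).

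Of the GTPases GBP1 and GBP2 rose, and MX1 and MX2 were not called. GBP1, a guanylate-binding protein that coats intracellular bacteria, was at 0 in both shRNA control libraries, at 4.59, 45.5 and 200.5 in shRNA 1 and at 14.2, 112 and 82.0 in shRNA 2. With 3 reads in each control library as the limit that a count of 0 allows, the knockdown mean of 76.4 was at least 26.4-fold higher, or at least 3.50 on the log2 scale. The fitted log2 change of 5.47 ± 1.13 (SE, limma adjusted p = 0.0304) depends on the pseudocount, and with GBP1 at its bound the median over the 47 genes stayed 1.73. GBP2, of the same family, stood at 3.98 and 30.9 in shRNA control, at 107, 135 and 333 in shRNA 1 and at 94.8, 132 and 86.8 in shRNA 2, and rose by 3.40 ± 0.66 (SE, adjusted p = 0.0227). MX1, a dynamin-like GTPase and one of the best known interferon-induced antiviral proteins, stood at 145 and 129 in shRNA control, at 195, 189 and 168 in shRNA 1 and at 82.5, 168 and 142 in shRNA 2. The MX1 groups overlapped, and its log2 change was 0.15 ± 0.38 (SE, adjusted p = 0.899). MX2, its neighbor on the chromosome, had a log2 change of 0.51 ± 0.39 (SE, adjusted p = 0.615).

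Among enzymes that restrict viruses, 1 of 4 was called. SAMHD1, which breaks down the deoxynucleotides that reverse transcription needs, stood at 106.5 and 128 in shRNA control, at 583, 615 and 1253 in shRNA 1 and at 313, 661 and 1334 in shRNA 2. The lowest knockdown library was above every control library of the study, and SAMHD1 rose by 2.58 ± 0.48 on the log2 scale (SE, limma adjusted p = 0.0175). RSAD2, which makes a chain-terminating nucleotide, had a log2 change of 2.42, its chromosomal neighbor CMPK2 of 2.30 and the exonuclease ISG20 of 1.92, and none of these passed the adjustment.

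SAMD9 and SAMD9L, neighboring genes on chromosome 7 (93099513 to 93118023 and 93130055 to 93148369, minus strand, GRCh38) whose products restrain poxviruses and cell growth, were both called. SAMD9L stood at 38.8 and 39.4 normalized counts in shRNA control, at 340.3, 789 and 3277 in shRNA 1 and at 325, 902 and 1076 in shRNA 2. The lowest knockdown library was far above the controls, and SAMD9L rose by 4.34 ± 0.69 on the log2 scale (SE, limma adjusted p = 0.00767), the lowest adjusted p among the 47 genes. SAMD9 stood at 302.5 and 320.5 in shRNA control, at 1145, 2642 and 7623 in shRNA 1 and at 1624, 2921 and 3231 in shRNA 2, and rose by 3.09 ± 0.55 (SE, adjusted p = 0.0137). In SAMD9 and SAMD9L alike the groups did not overlap.

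Of the PARP family and DTX3L, 1 of 5 was called. PARP9, which works as a complex with the ubiquitin ligase DTX3L and shares its promoter region on chromosome 3, stood at 162 and 175 in shRNA control, at 420.1, 1220.0 and 3999 in shRNA 1 and at 659, 1742 and 1990.0 in shRNA 2. It rose by 2.93 ± 0.65 on the log2 scale (SE, limma adjusted p = 0.0419) without overlap of the groups. DTX3L had a log2 change of 1.49 (adjusted p = 0.153), PARP14 of 2.07 (adjusted p = 0.0702), PARP12 of 1.55 (adjusted p = 0.127) and PARP10 of 1.10 (adjusted p = 0.399). Reads in the overlap of PARP9 and DTX3L cannot be told apart, because how strand was treated in counting is not stated in what was used here.

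TRIM proteins, a family that includes ubiquitin ligases, held 1 called gene in 5 and the smallest change of the 47. TRIM21, a cytosolic antibody receptor, stood at 309.5 and 382 in shRNA control, at 909, 887 and 1623 in shRNA 1 and at 1089, 1256 and 1836 in shRNA 2. It rose by 1.82 ± 0.34 on the log2 scale (SE, limma adjusted p = 0.0177), with no overlap. TRIM22 had a log2 change of 2.81 ± 0.67 (SE) that missed the threshold (adjusted p = 0.0586), with values from 518 to 5371 against 186 and 279 in shRNA control. TRIM14, a mitochondrial adaptor, stood at 4430.0 and 3282 in shRNA control, at 2544, 3263 and 1956 in shRNA 1 and at 3893, 5479 and 9625 in shRNA 2. All TRIM14 libraries of shRNA 1 were below both controls and 2 of the 3 libraries of shRNA 2 were above both, for a log2 change of 0.02 ± 0.51 (SE, adjusted p = 0.993).

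IFI27 and IFI6 encode small hydrophobic mitochondrial proteins. IFI27 had 3 reads over both shRNA control libraries (0.995 and 1.87 normalized counts) and stood at 20.2, 32.7 and 28.7 in shRNA 1 and at 15.2, 63.5 and 92.9 in shRNA 2. By reads and depth the ratio was 27.0, with a 95% exact binomial interval from 9.12 to 132 that covers counting error only, and the fitted log2 change was 3.90 ± 0.73 (SE, limma adjusted p = 0.0177). IFI6 stood at 2682 and 2863 in shRNA control, at 9526, 41819 and 22440 in shRNA 1 and at 6318, 59780 and 74426 in shRNA 2. No IFI6 library of the knockdown overlapped the controls, the first library of each hairpin was far below the other 2, and the log2 change of 3.18 ± 0.81 (SE) was not called (adjusted p = 0.0732).

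Of the 4 membrane proteins limma called 0, with 1 at an unadjusted p under 0.05, while DESeq2 called PLSCR1 and edgeR none. BST2, or tetherin, which holds budding virions on the cell surface, had the highest level of the 53 genes, with a mean of 13900 normalized counts per kilobase of exon in the 5 control libraries, where IFI6 had 3470. BST2 stood at 17034 and 11930 normalized counts in shRNA control, at 16705, 23266 and 8220 in shRNA 1 and at 16523, 35799 and 56882 in shRNA 2. Its groups overlapped, and its log2 change was 0.61 ± 0.61 (SE, adjusted p = 0.704). LY6E, a lipid-anchored protein that blocks coronavirus entry, had a log2 change of 0.07 (adjusted p = 0.973) and the scramblase PLSCR1 one of 1.73 (adjusted p = 0.129), with PLSCR1 at 370 and 288 in shRNA control and between 453 and 2125 in the knockdown. For the remaining genes named by role, the nuclear body protein SP110 had a log2 change of 1.91 (adjusted p = 0.0563), IFI35 of 2.58 (adjusted p = 0.0669) and TDRD7 of 1.41 (adjusted p = 0.153), each without overlap of the groups. PML, the organizer of nuclear bodies, had one of 0.34 (adjusted p = 0.752).

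The 6 genes not tested were near or at 0. ZBP1, a sensor of Z-form nucleic acid, had no read in 11 of 19 libraries, EPSTI1 in 10, IFI44L in 9, IFI44 in 7, and GBP4 and XAF1 in 6 each. Their highest values were 48.6 for ZBP1 in ATF7 knockout clone 2 replicate 1, 35.2 for IFI44 in IRF2BP2 shRNA 1 replicate 3 and 33.8 for IFI44L in the same library. Those libraries had the most genes detected (18875 and 19046). Of 5 epithelial genes examined, KRT5 (52.07 and 16.53) and KRT19 (31.24 and 14.37) also peaked there. EPCAM (30.85) and CDH1 (94.54) instead peaked in shRNA control replicate 1, and CLDN4 (67.31) in JDP2 knockout clone 2 replicate 2. The peaks of the untested genes lay in single libraries and are not taken as a trait of the groups.

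**Figure D2:**
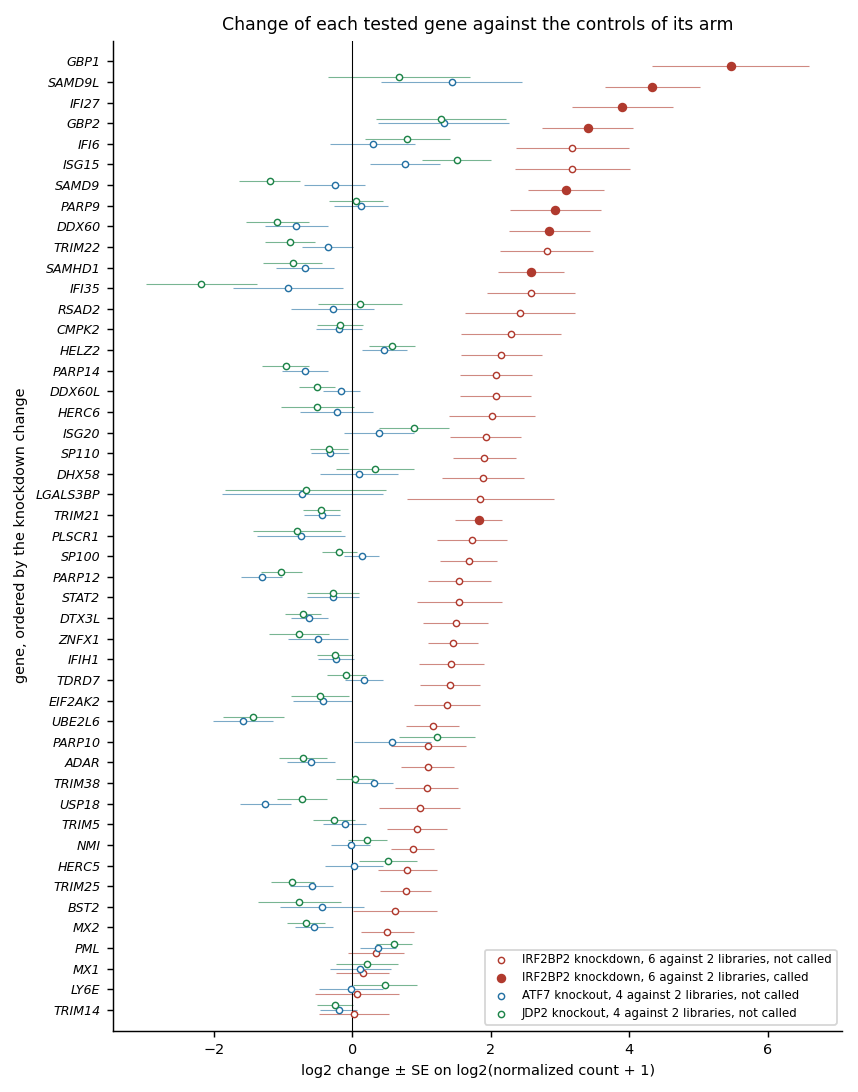
Points are log2 changes of the 47 tested genes (45 in the knockouts) on log2(normalized count + 1), bars are ± 1 SE, and filled points passed an adjusted p of 0.05. The 9 filled points belong to the knockdown, in which every point lies above 0, while most ATF7 and JDP2 knockout points lie at or below 0.

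The hairpins were described one by one and then compared directly. Against shRNA control the median log2 difference was 1.66 for shRNA 1, with 45 genes above 0 and 2 below, and 1.69 for shRNA 2, with 46 above and 1 below. Libraries of shRNA 1 all lay above both controls for 38 of 47 genes (18.4% of all genes) and those of shRNA 2 for 37 (19.8% of all genes). The direct comparison of the hairpins called 0 of 47 genes, and 0% of all genes, while 2 of 47 and 917 of all genes (7.20%) had an unadjusted p under 0.05. The largest differences, shRNA 2 minus shRNA 1, were ISG15 at 1.39, TRIM14 at 1.22, IFI35 at 1.15 and BST2 at 1.13, each with an adjusted p of 0.589. Of the genes lower in shRNA 2, GBP2 had the largest difference, at -0.71 (adjusted p = 0.626).

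Within each hairpin the libraries were unequal. The median log2 difference of the 47 genes from the shRNA control mean was 1.01, 1.63 and 2.48 in replicates 1 to 3 of shRNA 1, and 0.90, 1.81 and 2.47 in those of shRNA 2. For 32 of the 47 genes (68.1%, against 8.63% of all genes) replicate 1 was the lowest library of both hairpins, and for 0 (5.68% of all genes) it was the highest of both. The library labelled shRNA 2 replicate 3, in which the IRF2BP2 message was above the controls, had a median next to the largest. The highest knockdown library was shRNA 1 replicate 3 for 22 genes (46.8%, against 38.1% of all genes) and shRNA 2 replicate 3 for 23 (48.9%, against 31.7%). The first set, among them SAMD9, SAMD9L, DDX60 and TRIM22, had a median GC content of 42.9%. The second, among them ISG15, IFI6, BST2 and IFI35, had one of 53.1%. GC content was that of the longest transcript of each gene. Over the 47 genes Spearman's rho between GC content and the log2 deviation from the median of all libraries was -0.70 in shRNA 1 replicate 3 and -0.03 in shRNA 2 replicate 3, beside -0.52 and 0.29 over all genes, where genes of 1 library share its preparation. The part of GC content in these differences was not tested, and with the GC trend of each library removed 24 of the 47 genes were called higher. For that fit the share of all genes called is not given here.

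**Figure D3:**
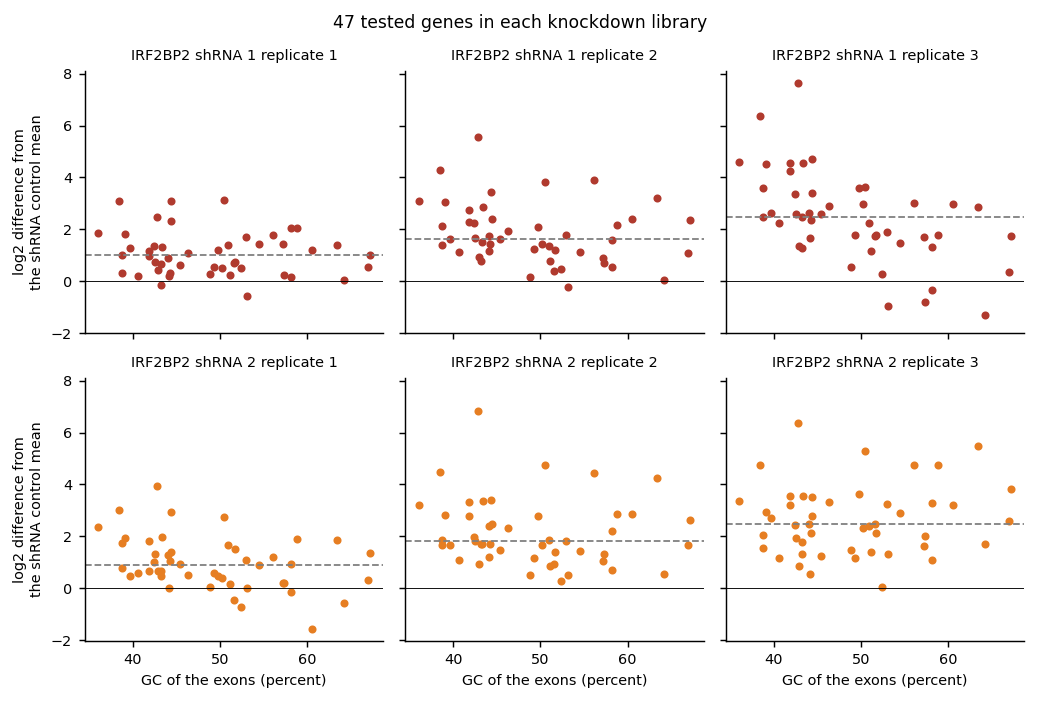
Each panel is 1 knockdown library and each point 1 of the 47 tested genes. The horizontal axis, labelled GC of the exons, is the GC content of the longest transcript in percent. The vertical axis is the log2 difference from the shRNA control mean, and the dashed line is the median of the genes. The points slope down with GC content in shRNA 1 replicate 3, and most points are above 0 in all 6 panels.

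In the knockout arm limma called none of these genes, while other fits called up to 3. By limma, 0 of 45 tested genes passed in the ATF7 knockout (0.25% of all genes) and 0 of 45 in the JDP2 knockout (0.674% of all genes), with 4 and 13 at an unadjusted p under 0.05 (7.09% and 16.8% of all genes). On the recovered reads DESeq2 called PARP12 and UBE2L6 lower in both knockouts and ISG15 higher in the JDP2 knockout, and edgeR called 0. With all 5 control libraries limma called ISG15 higher and SAMD9 and PARP14 lower in the JDP2 knockout. Median log2 changes were -0.24 for ATF7 and -0.28 for JDP2, against 0.04 and 0.00 for all genes, and 30 and 29 of 45 were below 0. Both knockouts were set against the same 2 control libraries, so their values are given side by side only. Every ATF7 knockout library lay below both controls for 13 of 45 genes (28.9%, against 10.6% of all genes) and above both for 1 (7.82%), ISG15. Every JDP2 knockout library lay below both for 12 (26.7%, against 13.8%) and above both for 4 (13.0%), ISG15, ISG20, PARP10 and PML. For PARP14 and DTX3L all 8 knockout libraries lay below all 5 control libraries, as 1.83% of all genes did.

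PARP12, a zinc-finger ADP-ribosyltransferase, had the lowest p among these genes in the ATF7 knockout. It stood at 1040.0 and 774 in knockout control, at 492 and 437 in ATF7 clone 1, at 264 and 303 in ATF7 clone 2, at 446 and 401 in JDP2 clone 1 and at 404 and 518 in JDP2 clone 2. All 8 knockout libraries were below both knockout controls, but the shRNA control (477 and 351) and wild type (429) lay among them. The log2 change was -1.31 ± 0.30 in ATF7 (SE, limma adjusted p = 0.117) and -1.03 ± 0.30 in JDP2 (SE, adjusted p = 0.170). UBE2L6 was similar, at 1191 and 2409 in knockout control and between 392 and 889.5 in the 8 knockout libraries, with log2 changes of -1.58 ± 0.44 (SE, adjusted p = 0.246) and -1.43 ± 0.44 (SE, adjusted p = 0.192). Its wild-type value was 644.5, also inside the range of the knockouts. ISG15 went the other way, from 1168 and 818 in knockout control to 1253 to 2223 in ATF7 and 1584 to 7338 in JDP2, with log2 changes of 0.76 (adjusted p = 0.789) and 1.51 (adjusted p = 0.212). The highest ISG15 value was in JDP2 clone 1 replicate 2, one of the libraries far from the median. SAMD9 stood at 199.9 and 398 in knockout control, between 156 and 347 in ATF7 and between 83.0 and 207 in JDP2, where its log2 change was -1.20 ± 0.44 (SE, adjusted p = 0.234).

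The clones of a knockout differed in a few of the genes without a call. IFI35 stood at 182 and 239 in ATF7 clone 1 and at 44.0 and 30.0 in ATF7 clone 2, a log2 difference of -2.49 ± 0.51 (SE, limma adjusted p = 0.102), and at 264 and 106 in knockout control. BST2 stood at 17670.0 and 20226 in ATF7 clone 1 and at 4068 and 9257 in clone 2, a difference of -1.62 ± 0.52 (SE, adjusted p = 0.409). Of 45 genes 0 were called between the ATF7 clones (0.303% of all genes) and 0 between the JDP2 clones (0.136% of all genes), with 5 and 2 at an unadjusted p under 0.05. Shares of all genes at that unadjusted level are not given here for the clones, so these counts alone do not set the genes apart. Without JDP2 clone 1 replicate 1 there was 1 call in each of the comparisons between clones, and without JDP2 clone 1 replicate 2 there was 1 between the ATF7 clones. HERC6, of the ligase family that includes HERC5, had the largest difference between JDP2 clones, at 40.1 and 41.0 against 126 and 128, or 1.62 ± 0.38 (SE, adjusted p = 0.430). ATF7 and JDP2 knockouts compared directly gave 0 calls in 45 genes (0% of all genes), with 1 of 45 and 2.19% of all genes at an unadjusted p under 0.05.

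**Figure D4:**
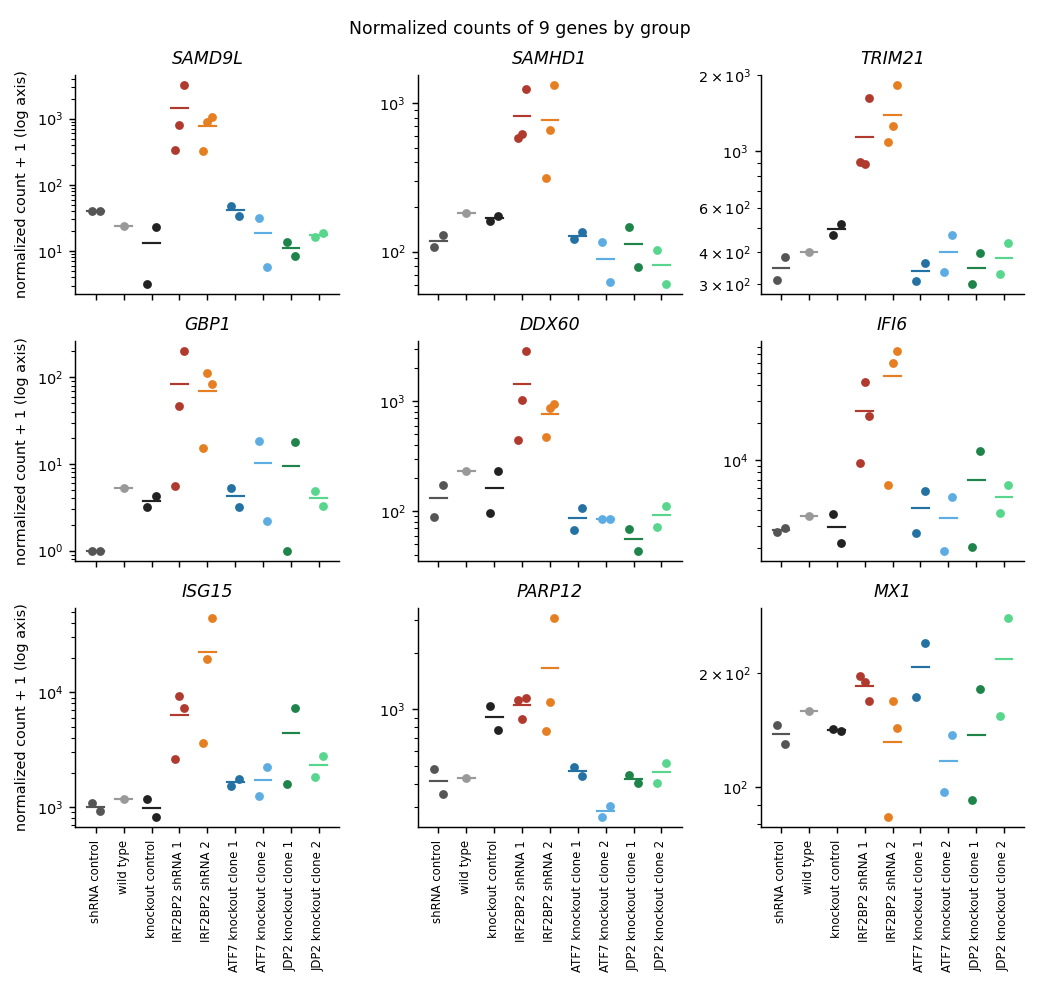
Normalized count + 1 on a log axis for 9 genes, with 1 point per library and a line at each group's mean. SAMD9L, SAMHD1, TRIM21 and DDX60 show every IRF2BP2 shRNA point above all other points, and MX1 shows the groups mixed.

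The difference between the knockdown effect and the mean knockout effect was tested by an interaction contrast. It was higher in the knockdown for 11 of 47 genes and lower for 0, where 1.17% of all genes were called higher and 0.237% lower, and the median difference was 2.09 on the log2 scale. SAMD9 differed by 3.82 ± 0.71 (SE, limma adjusted p = 0.0156), DDX60 by 3.79 ± 0.75 (SE, adjusted p = 0.0214), SAMHD1 by 3.36 ± 0.63 (SE, adjusted p = 0.0165) and TRIM21 by 2.26 ± 0.40 (SE, adjusted p = 0.0126). TRIM22, PARP14, PARP12, UBE2L6, DDX60L, SP110 and DTX3L differed too, by 2.16 to 3.44. Of the 11 genes, 4 were called in the knockdown and 7 (DDX60L, UBE2L6, PARP12, PARP14, DTX3L, TRIM22 and SP110) in neither arm alone. PARP12 and UBE2L6 both stood higher in knockout control than in shRNA control, as the values above and the 854 and 1041 of UBE2L6 in shRNA control show. So did TRIM21 (466 and 515 against 309.5 and 382), SAMHD1 (160 and 174 against 106.5 and 128) and SP110 (410 and 455 against 278 and 385). For these genes part of the difference rests on the higher knockout control. For the rest of the 11 genes the control groups overlapped. With any 1 of the 4 control libraries left out, and the spread taken from the other groups, 0 genes passed, and with replicate 2 of hairpin shRNA 2 left out 7 did.

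Other genes of the interferon pathway, from lists of ligands, receptors and regulators, were examined in the knockdown. The 21 interferon genes in the table were all below the filter, and the highest value of any was 39.3 normalized counts, for IFNL3 in ATF7 knockout clone 2 replicate 1. KRT5 and KRT19 peaked in that library too, while EPCAM, CDH1 and CLDN4 did not. Of the receptors 0 of 5 tested were called, of JAK-STAT signalling 0 of 6, of interferon regulatory factors 0 of 7, of negative regulators 0 of 8 and of sensors upstream of interferon 0 of 9 (1.54% of all genes higher and 0.251% lower). An unadjusted p under 0.05 was found for 3, 3, 4, 1 and 1 of these genes, against 14% of all genes. The receptors and JAK-STAT genes all had a log2 change above 0, and IRF7, a factor that drives interferon genes, had 2.86 (adjusted p = 0.0611). IRF2 was called in the interaction contrast, higher in the knockdown by 2.34 ± 0.42 (SE, limma adjusted p = 0.0121). It stood at 565.1 and 720.1 in knockout control and between 216.3 and 411.9 in the knockouts. The shRNA control (363.2 and 409.5) and wild type (342.4) lay inside that knockout range, so part of the difference rests on the high knockout control. Of the OAS, IFIT, IFITM and PYHIN genes 9 of 15 tested rose and 0 fell (1.54% and 0.251% of all genes), namely OAS1, OAS2, OAS3, OASL, IFIT2, IFIT3, IFIT5, AIM2 and IFI16. In the JDP2 knockout IFITM2, which blocks viral entry in endosomes, fell by 2.55 ± 0.39 on the log2 scale (SE, limma adjusted p = 0.0151), and 0 of the other genes on these lists was called in either knockout. IFITM2 stood at 6754 and 8720 in knockout control, between 1098 and 1562 in JDP2 and between 1063 and 3441 in ATF7. The shRNA control (4576 and 3805) and wild type (3302) lay below the knockout control and above the JDP2 knockout, so the fall against them was smaller.

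The authors' deposited table for the knockdown, which by its values set the hairpins against all controls, had 39 of the 47 genes with an adjusted p higher at 0.05 and 0 lower (10.6% and 6.84% of all genes in that table). The authors' deposited tables for the knockouts had 0 of these genes in either direction for ATF7 (0.0315% of all genes higher and 0.284% lower). For JDP2 they had 0 higher (7.55% of all genes) and 1, SAMD9, lower (4.53% of all genes).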

How the data were processed

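RNA-seq libraries of THP1 cells were analysed from 19 columns for 21 labelled samples. The libraries labelled low quality (replicate 2 of shRNA control, replicate 1 of wild type) were not analysed here. Processing by the submitters used featureCounts and DESeq2 with hg38, per the submitters' processing notes; aligner and strand handling: not given in the sources used here. The authors deposited normalized counts, a signal per gene and library (reads divided by 1 size factor per library). All 388037 values were whole multiples of 1 step per library within 0.01, which gave the reads back. In addition the authors deposited 3 tables of comparisons, each with a mean signal, a log2 fold change with its SE, a Wald score, and p-values. The values used are log2(normalized count + 1), a scale that understates changes of low genes. A gene entered a fit at a mean of at least 10 in its libraries. Tests were run with limma 3.58.1 with a trend in R 4.3.3, with Benjamini-Hochberg adjustment over all genes tested and a call under 0.05. The knockdown fit held the 8 libraries of its arm with both hairpins as 1 group, and the knockout fit held the 10 of its arm. Alternatives included edgeR 4.0.16 and DESeq2 1.42.0 on the recovered reads, and the fits were checked on simulated data. GC content was that of the longest GENCODE transcript of each gene, and promoters came from RefSeq. The members and all lists were chosen with earlier results of these data known. Genes named are the 12 called genes with the lowest adjusted p, for each other role the one with the lowest adjusted p in the knockdown, and the 2 with the highest level. Other genes named, such as ISG15, MX1, MX2, PARP9, TRIM14, LY6E and PML, were chosen after their values were seen. The values of 1 gene of the pathway are not reported here.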

Additional observations from a re-analysis of the deposited data

Results flagged for a closer look

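Within groups of 4 to 6 libraries, single libraries stood apart by Dixon's test (1 in 20 level) in 13 of 76 groups of the named genes. That level holds for a normal spread and separate groups. The normalized counts were not put on the log2 scale and the groups share libraries, so the 13 are not compared with it. IRF2BP2 shRNA 1 replicate 3 stood above the other 5 knockdown libraries for SAMD9L (3277 normalized counts), SAMD9 (7623), DDX60 (2849), GBP2 (332.7), TRIM22 (5371) and TDRD7 (1508). The library labelled IRF2BP2 shRNA 2 replicate 3 stood above the others for PARP12 (3092) and IFI35 (2990). Both are libraries with over 20% of all genes more than 2-fold from the median. In the JDP2 knockout, clone 2 replicate 2 was far above the other libraries for GBP2 (29.17) and TRIM22 (253.5). IFI27 was below the other ATF7 knockout libraries in clone 1 replicate 1 (1.078) and above the other controls in wild type (5.3), where both values rest on few reads. IFI35 was far above the other controls in knockout control replicate 1 (264.1).

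The knockdown effect minus the knockout effect passed the interaction test, on the log2 scale, for DDX60 (3.79), DDX60L (2.41), UBE2L6 (2.66), SAMHD1 (3.36), SAMD9 (3.82), PARP12 (2.71), PARP14 (2.89), DTX3L (2.16), TRIM21 (2.26), TRIM22 (3.44) and SP110 (2.24).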

How the results depend on the processing

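The direction of the 9 calls in the knockdown was the same in all 206 values from 23 alternatives (IFI27 had no value under the filter at a mean of 50), and 39 of these values no longer passed. The number called higher, 9 in the report, was 4 with edgeR (SAMHD1, SAMD9, SAMD9L and TRIM21), 32 with DESeq2, 33 with array weights, 20 with all 19 libraries in 1 fit, 34 against all 5 controls, 29 with the 3 far libraries left out and 24 with GC-bin correction. The last 2 were chosen after seeing the data. Shares of all genes called under these settings are not given here, and a setting can call more genes of every kind. Leaving out 1 library at a time gave 0 to 20. Between hairpins, array weights gave 8 calls in place of 0. In the ATF7 knockout DESeq2 gave 2, and in the JDP2 knockout DESeq2 and the use of all 5 controls gave 3 each. Between ATF7 clones DESeq2, array weights and leaving out the 3 far libraries gave 1 each, and leaving out 1 library gave 0 to 1 in both comparisons of clones. The interaction, 11 in the report, had 27 calls with DESeq2, 6 with no filter, 7 with quantile normalization, 17 without the 3 far libraries and 0 to 14 with 1 library left out.

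With a replicate block the knockdown had 12 calls, the ATF7 knockout 1, the JDP2 knockout 1 and the interaction 18. With a replicate block and GC-bin correction these were 32, 2, 1 and 26, and the ATF7 clones had 1. For these fits too the shares of all genes called are not given here, so the counts alone do not set these genes apart. Correlations of same-numbered libraries, on deviations from group means, ran from -0.53 to 0.57 (13 of 27 pairs over 0.1). In groups of 2 libraries the deviations mirror each other, so each knockout value occurs 2 times and the count does not decide on pairing. The numbers were not taken to pair the libraries.

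The near-zero changes of LY6E and TRIM14 reversed. LY6E had -0.042 and TRIM14 -0.045 with a replicate block, and -0.086 and -0.019 against all 5 controls. TRIM14 had -0.064 with the 3 far libraries left out. With 1 library left out LY6E ran from -0.26 to 0.35 and TRIM14 from -0.24 to 0.24. Equal totals moved the median of all genes in the JDP2 knockout to -0.23 and between hairpins to -0.32, and the members' medians to -0.51 and -0.29. In only the 200 bases before the start, 24 genes held the ISRE letters in place of 28. The 6 genes below the filter, GBP1 and IFI27 rest on few reads in the controls, which limits their values.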
